A study of Homo sapiens with 32 samples.

Results

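The human metallothionein genes were followed in 2 acute myeloid leukaemia cell lines given inhibitors of the histone demethylase KDM1A. The 7 members, MT2A, MT1X, MT1E, MT1F, MT1G, MT1H and MT1M, were taken by symbol from the 23073 genes of the deposited expression table, and they were chosen with their response to the inhibitors in view. Kasumi-1 and SKNO-1 are cultured lines that carry the RUNX1-RUNX1T1 fusion of t(8;21) leukaemia. Each was given the vehicle DMSO at 0.1%, or RN-1, GSK690 or GSK690* at 1 µM, for 24 or 72 h. RN-1 inhibits KDM1A irreversibly, GSK690 does so reversibly, and GSK690* is the isomer of GSK690 that the labels describe as inactive. The 16 groups of line, agent and time hold 2 libraries each, numbered 1 and 2 in the titles and called biological replicates, so 32 libraries were compared in 4 sets of 8. Kasumi-1 was grown with 20% serum and SKNO-1 with 10% serum and 10 ng/mL GM-CSF. For the later SKNO-1 libraries the titles say 72 h and the treatment protocol says 4 days.

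Metallothioneins are small cysteine-rich proteins that bind zinc, copper and cadmium in thiolate clusters. They buffer free zinc and react with oxidants. Their genes are switched on when zinc-loaded MTF1, the metal-sensing transcription factor, binds short metal response elements in their promoters, and MT2A also responds to glucocorticoids and phorbol ester. MT2A and the MT1 genes lie side by side, MT3 belongs mostly to brain, and MT4 to squamous epithelium. KDM1A removes methyl groups from lysine 4 of histone H3 and works in repressor complexes with CoREST and GFI1 factors.

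By the loci in the deposited annotation (hg19 per the submitters' processing notes), the members occupy 76.0 kb of chromosome 16, from 56642110 to 56718108. MT2A comes first, at 56642110 to 56643409. MT1E starts 17.3 kb further on, MT1M 24.0 kb, MT1F 49.5 kb, MT1G 58.5 kb, MT1H 61.6 kb and MT1X 74.2 kb. The members are close copies of one another, and the sources used here do not say how reads that match several genes were counted, so reads may have been divided between them.

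Upstream sequences from RefSeq (GRCh38.p14) were at hand for 3 of the 7 members. The 250 bases before the transcription start are shown for these because they carry the motif through which the family is known to sense metal, and because they set the most abundant member, MT2A, and MT1X beside MT1H, which was hardly expressed here. Each runs 5′ to 3′ on the plus strand. Capitals mark matches on either strand to the core of the metal response element, searched as TGCACNC and TGCGCNC, none of which overlap one another. The motifs and the window were chosen with the members' response known.
MT2A, chr16:56608334-56608583: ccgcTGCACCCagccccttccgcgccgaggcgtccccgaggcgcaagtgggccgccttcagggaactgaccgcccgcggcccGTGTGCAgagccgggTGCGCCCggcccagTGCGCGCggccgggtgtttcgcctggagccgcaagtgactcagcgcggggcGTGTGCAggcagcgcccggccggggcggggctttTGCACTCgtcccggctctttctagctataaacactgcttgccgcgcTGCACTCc
MT1X, chr16:56682220-56682469: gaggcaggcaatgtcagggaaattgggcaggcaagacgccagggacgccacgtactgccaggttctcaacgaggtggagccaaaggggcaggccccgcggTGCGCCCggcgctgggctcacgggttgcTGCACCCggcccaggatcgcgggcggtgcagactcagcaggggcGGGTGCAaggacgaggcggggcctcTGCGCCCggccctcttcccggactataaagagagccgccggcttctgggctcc
MT1H, chr16:56669564-56669813: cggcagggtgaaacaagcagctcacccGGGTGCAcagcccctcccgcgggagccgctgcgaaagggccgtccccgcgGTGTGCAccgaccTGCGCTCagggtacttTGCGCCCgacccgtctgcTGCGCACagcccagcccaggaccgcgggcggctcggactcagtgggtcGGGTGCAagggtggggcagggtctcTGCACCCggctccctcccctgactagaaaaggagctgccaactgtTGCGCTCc
The MT2A stretch held 7 matches, the MT1X stretch 4 and the MT1H stretch 8. Of the 35116 RefSeq promoters of the same 250 bases, 24.8% held at least 1 match, 0.37% at least 4, 0.0313% at least 7 and 0.0171% at least 8. The AP-1 motif TGACTCA, searched on both strands, was found 1 time in MT2A, where it overlaps no metal response core, and not in the MT1X and MT1H windows, and 4.2% of all promoters held it. A match is a string of letters in this window and does not show that a factor binds. The count of matches did not follow the level of RNA, since MT1H, with the most, was above 0 in only 3 of the 32 libraries.

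Expression was read as FPKM, fragments scaled to transcript length and to the mapped total, a unit that allows levels to be compared between genes. FPKM summed over all genes ran from 332648 to 395945 per library, and the depth in reads is unknown. Libraries of the same group correlated across genes at r of 0.985 to 0.994. The myeloid markers MPO, KIT, CD33 and RUNX1T1 were high in both lines, at 18.1 FPKM or more in every library. CD34 reached 63.9 to 245 FPKM in Kasumi-1 and 0.117 to 4.64 in SKNO-1, and CD38 showed the reverse order. Of the markers of lymphoid, erythroid, epithelial and stromal cells, MS4A1, HBB and COL1A2 were listed at 0 in every library, and the rest were at 3.03 FPKM or less except EPCAM, which was at 61.0 to 83.5 FPKM in Kasumi-1. At 72 h the authors' sample table swaps the cell lines of all 16 libraries against their titles. The titles were followed: by title, a 72 h library correlated at 0.971 to 0.983 with 24 h libraries of the same line, against 0.845 to 0.868 for the opposite line.

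MT2A and MT1X made up most of the metallothionein RNA. In the DMSO and GSK690* libraries together, the controls, MT2A stood at 65.3 ± 13.2 FPKM in Kasumi-1 at 24 h, 45.3 ± 3.69 in Kasumi-1 at 72 h, 28.4 ± 7.13 in SKNO-1 at 24 h and 32.3 ± 8.71 in SKNO-1 at 72 h (SD, n = 4). MT1X followed at 25.8 ± 6.08, 26.96 ± 6.29, 9.37 ± 3.94 and 11.4 ± 3.70 FPKM in the same order. Over the 32 libraries MT2A held between 45.7% and 72.5% of the summed FPKM of the 7 genes.

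The other members were lower. In Kasumi-1 controls at 24 h, MT1E was at 9.63 ± 2.95 FPKM and MT1G at 6.996 ± 2.76 FPKM (SD, n = 4). At 72 h MT1G (4.91 ± 1.57 FPKM) came before MT1E (3.91 ± 1.04 FPKM). The ranges of these genes overlapped at both times. Within each control library MT1E was above MT1G at 24 h and below it at 72 h, an order that was not tested. In SKNO-1 the order of the means was MT2A, MT1X, MT1G, MT1F and MT1E at both times, with MT1F at 1.75 ± 1.01 FPKM at 24 h and 1.70 ± 0.567 FPKM at 72 h. At 24 h MT1E was close to MT1F, at 1.60 ± 1.02 FPKM. It was above MT1F in the DMSO libraries and below it in the GSK690* libraries. MT1F was at most 0.1501 FPKM in any Kasumi-1 library. MT1M was above 0 in 6 of the 32 libraries and reached 0.0875 FPKM, and MT1H in 3, reaching 0.101 FPKM. Those genes did not pass the filter of at least 1 FPKM in at least 2 libraries, which kept 5 of the 7 members and 11890 genes in all, and they enter no test.

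**Figure D1:**
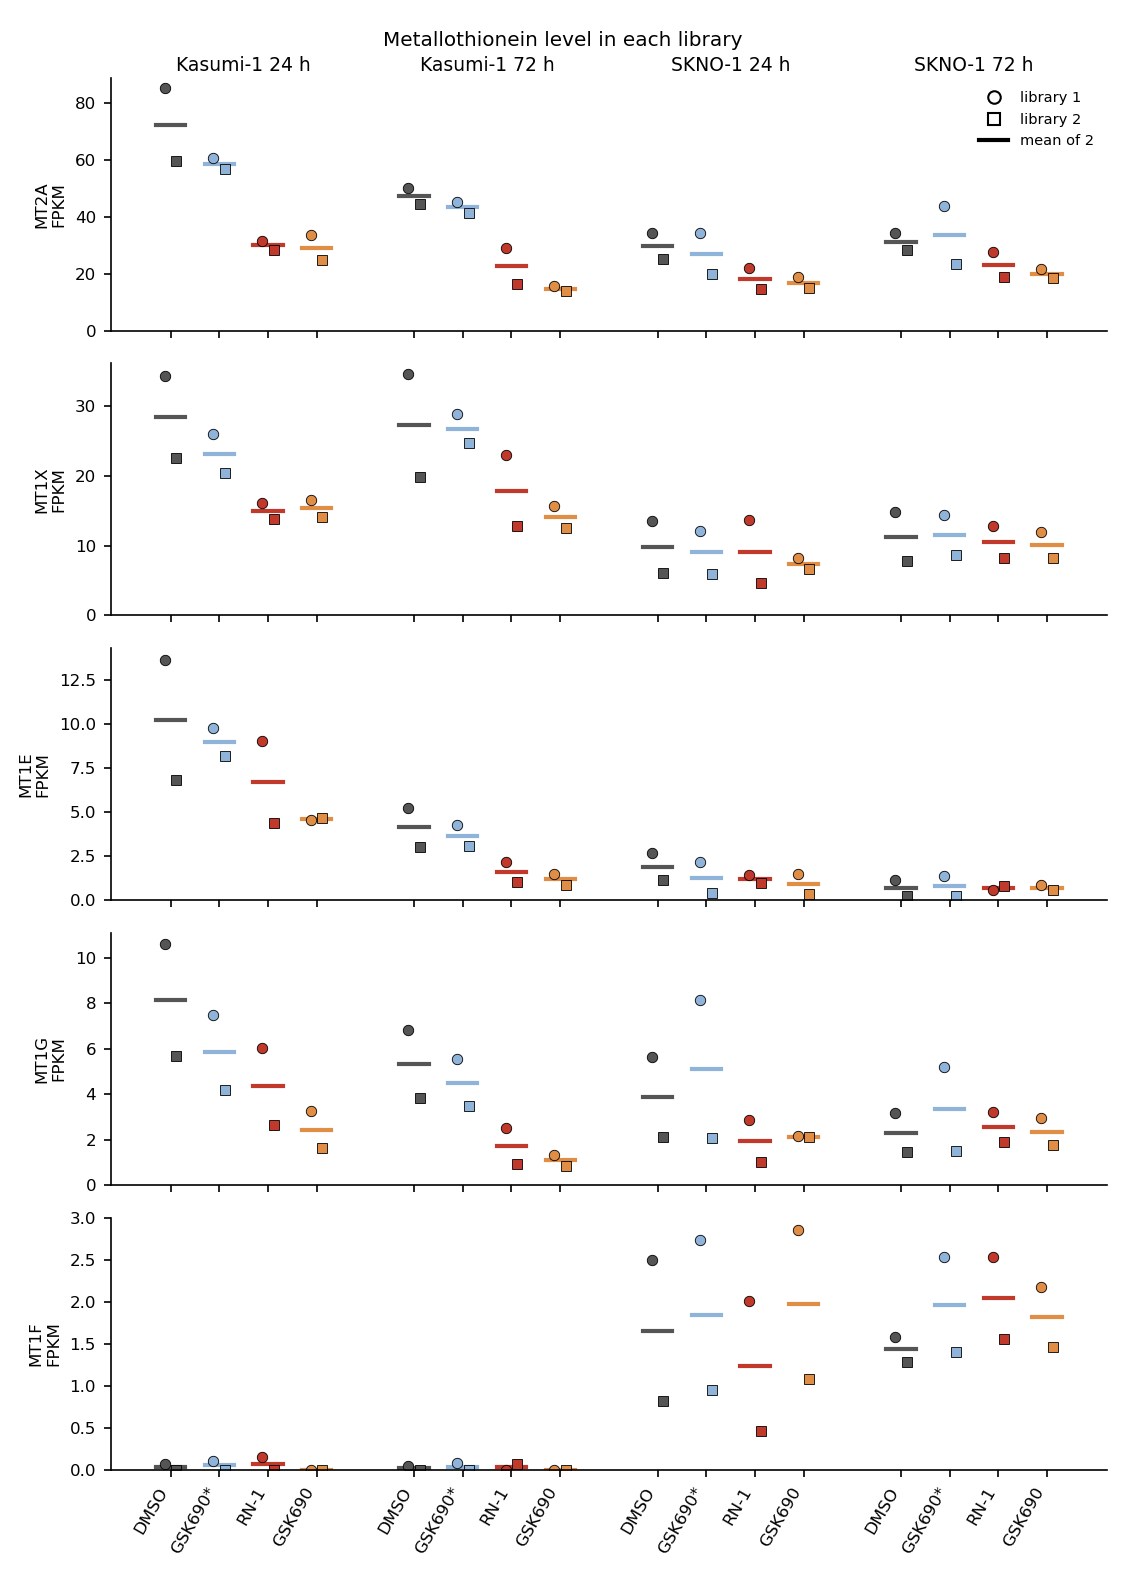
FPKM of MT2A, MT1X, MT1E, MT1G and MT1F (one panel each, each with its own scale from 0) in every library, by cell line, time and agent; circles are libraries numbered 1, squares libraries numbered 2, and bars the mean of both. MT2A in Kasumi-1 runs from 41.2 to 85.0 FPKM with DMSO or GSK690* and from 13.7 to 33.7 FPKM with RN-1 or GSK690, and in nearly every group the circle is above the square.

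With KDM1A inhibitors the summed metallothionein RNA of Kasumi-1 stood at about the same fraction of its control level at both times, which does not hold for each member. The values that follow are the ones that led to the choice of these genes, so they are given as a description with no test. Summed over the 7 genes, the 4 control libraries of Kasumi-1 at 24 h lay between 89.4 and 144 FPKM and the 4 inhibitor libraries between 45.1 and 62.8 FPKM. At 72 h the controls lay between 71.1 and 96.8 FPKM and the inhibitor libraries between 28.0 and 56.7 FPKM. In SKNO-1 the sums overlapped, at 29.2 to 59.4 FPKM against 21.5 to 41.8 FPKM at 24 h and at 35.0 to 67.1 FPKM against 30.4 to 46.8 FPKM at 72 h. The mean of the inhibitor libraries was 49.9% and 46.3% of that of the controls in Kasumi-1 at 24 and 72 h, and 66.8% and 75.4% in SKNO-1. In cultures sequenced in bulk, a lower level per cell cannot be told apart from fewer cells that express the genes.

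MT2A, the most widely expressed human metallothionein, carried most of this difference. In Kasumi-1 at 24 h its FPKM was 85.0 and 59.4 with DMSO, 60.4 and 56.6 with GSK690*, 31.5 and 28.4 with RN-1, and 33.7 and 24.6 with GSK690 (library 1, then library 2). Every inhibitor library lay below every control, and the lowest control was well clear of the highest inhibitor library. In Kasumi-1 at 72 h it was 50.1 and 44.4 with DMSO, 45.2 and 41.2 with GSK690*, 29.1 and 16.4 with RN-1, and 15.6 and 13.7 with GSK690. Again no inhibitor library reached a control, and RN-1 library 1 was the highest of the inhibitor libraries. The inhibitors stood at 45.2% and 41.4% of the controls at 24 and 72 h, differences of -1.11 and -1.28 on the log2(FPKM + 1) scale.

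MT2A was also lower on average in SKNO-1, by less and with overlap. At 24 h its FPKM was 34.2 and 25.2 with DMSO, 34.3 and 19.8 with GSK690*, 21.9 and 14.4 with RN-1, and 18.8 and 14.8 with GSK690. At 72 h it was 34.1 and 28.3 with DMSO, 43.6 and 23.3 with GSK690*, 27.6 and 18.7 with RN-1, and 21.7 and 18.4 with GSK690. In both sets the overlap came from GSK690* library 2, which fell below RN-1 library 1, and without either of those libraries MT2A no longer overlapped. Within each library number every inhibitor library was below both controls of its set, at 24 and at 72 h. That split was made after the overlap was seen, and the labels do not say what the number marks, so nothing more is read from it. The log2 differences were -0.65 and -0.54, with inhibitors at 61.7% and 66.7% of controls.

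MT1X, another ubiquitous member, was lower with inhibitors in Kasumi-1 and differed little in SKNO-1. In Kasumi-1 at 24 h its FPKM was 34.2 and 22.5 with DMSO, 25.9 and 20.4 with GSK690*, 16.1 and 13.8 with RN-1, and 16.5 and 14.1 with GSK690, with no overlap. At 72 h it was 34.6 and 19.8 with DMSO, 28.8 and 24.6 with GSK690*, 22.9 and 12.8 with RN-1, and 15.7 and 12.5 with GSK690, where RN-1 library 1 lay above DMSO library 2. The log2 differences were -0.71 and -0.73. In SKNO-1 they were -0.17 and -0.11, the controls and inhibitors overlapped over most of their range, and leaving out 1 library changed the sign in 2 of 8 cases at each time (from -0.42 to 0.04 at 24 h and from -0.26 to 0.02 at 72 h).

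MT1E and MT1G, 2 MT1 genes of more restricted expression, showed the lowest inhibitor levels relative to control in Kasumi-1 at 72 h. MT1E was 5.23 and 3.05 FPKM with DMSO, 4.26 and 3.10 with GSK690*, 2.16 and 1.02 with RN-1, and 1.51 and 0.879 with GSK690, so that no inhibitor library reached a control. MT1G was 6.83 and 3.82 FPKM with DMSO, 5.55 and 3.46 with GSK690*, 2.52 and 0.939 with RN-1, and 1.33 and 0.853 with GSK690, also without overlap. The inhibitors stood at 35.6% of controls for MT1E and 28.7% for MT1G, log2 differences of -1.04 and -1.31. At 24 h MT1E was 13.7 and 6.87 FPKM with DMSO, 9.81 and 8.19 with GSK690*, 9.03 and 4.40 with RN-1, and 4.56 and 4.65 with GSK690. MT1G was 10.6 and 5.67 FPKM with DMSO, 7.503 and 4.20 with GSK690*, 6.03 and 2.66 with RN-1, and 3.25 and 1.62 with GSK690. For both genes RN-1 library 1 lay within the controls and the other inhibitor libraries below them, and the log2 differences were -0.69 and -0.89.

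In SKNO-1 the inhibitor libraries of MT1E and MT1G overlapped the controls at both times. MT1G at 24 h was 5.62 and 2.13 FPKM with DMSO, 8.16 and 2.09 with GSK690*, 2.85 and 1.035 with RN-1, and 2.16 and 2.11 with GSK690, a log2 difference of -0.73. The inhibitors stood at 45.2% of controls for MT1G, beside 48.4% in Kasumi-1 at 24 h. With 1 library left out the SKNO-1 difference ran from -0.96 to -0.43. The controls numbered 2 were level with the GSK690 libraries and above RN-1 library 2. MT1E at 24 h was 2.70 and 1.13 FPKM with DMSO, 2.15 and 0.423 with GSK690*, 1.42 and 1.01 with RN-1, and 1.49 and 0.338 with GSK690, a difference of -0.28 with wide overlap. At 72 h the differences were 0.03 for MT1E and -0.06 for MT1G, and each changed sign in 4 of the 8 cases when 1 library was left out. Quantile normalization turned MT1E at 72 h to -0.09.

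MT1F was at or near 0 in all Kasumi-1 libraries, where no decrease could show. In SKNO-1 its log2 differences were -0.10 at 24 h and 0.12 at 72 h, the latter -0.02 after quantile normalization, with controls of 0.818 to 2.74 and 1.29 to 2.54 FPKM against inhibitor libraries of 0.467 to 2.86 and 1.47 to 2.54 FPKM.

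Counted over the 7 members, 2 in Kasumi-1 at 24 h (MT2A and MT1X) and 3 at 72 h (MT2A, MT1E and MT1G) had every inhibitor library below every control, and 0 did in SKNO-1 at either time. Over all 11862 genes with complete values that passed the filter, 18.2%, 13%, 8.37% and 6.68% did so in the 4 sets, and because the members were chosen on this contrast nothing is read from their count. In 0 members did every inhibitor library lie above every control, where 14.4%, 15.6%, 6.8% and 8.57% of genes did. Without RN-1 library 1 the count in Kasumi-1 at 24 h was 4. In SKNO-1 it was 1, MT2A, at each time without RN-1 library 1 or without GSK690* library 2. The median log2 difference of the 5 members that passed the filter was -0.71, -1.04, -0.28 and -0.06, where that of all genes tested was -0.01, -0.02, -0.02 and -0.02.

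**Figure D2:**
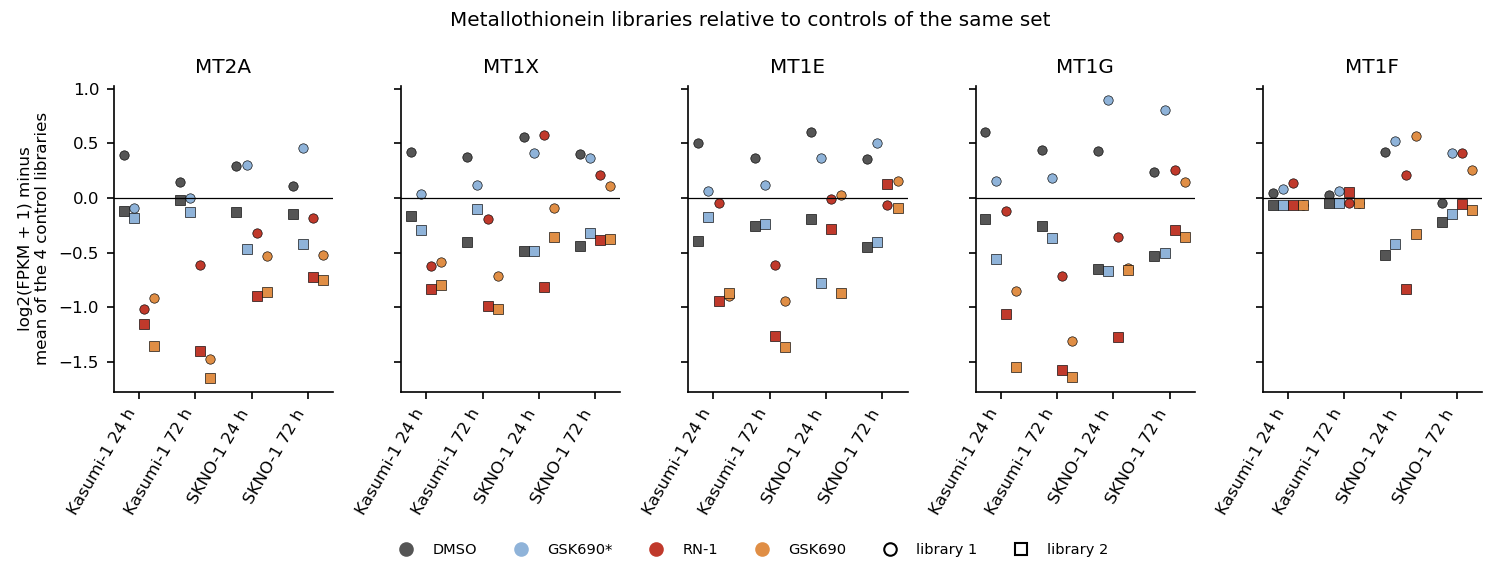
log2(FPKM + 1) of each library minus the mean of the 4 controls of its set, for 5 metallothioneins in the 4 sets of cell line and time; colours are agents, circles libraries numbered 1 and squares libraries numbered 2. MT2A inhibitor libraries lie below 0 in all 4 sets, with mean differences of -1.11, -1.28, -0.65 and -0.54, while MT1F is spread around 0.

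The library number went with the level of these genes. MT2A, MT1X and MT1G were higher in library 1 than in library 2 in 16 of 16 groups, MT1E in 14 and MT1F in 13. The mean of libraries 1 was 1.21 to 1.47 times that of libraries 2 for MT2A, 1.31 to 2.03 times for MT1X, 1.54 to 2.68 times for MT1E and 1.79 to 2.55 times for MT1G, across the 4 sets. For MT1F it was 3.05 times in SKNO-1 at 24 h and 1.55 times at 72 h. Over the 11862 genes, 1.8% had library 1 above library 2 in at least 15 of the 16 groups, a limit chosen after the members' values were seen. The labels do not say what the number marks, and its part in the differences reported here was not tested beyond a fit with a term for it. Each arm of every comparison holds the same number of libraries 1 and 2.

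Taken by compound, and again as a description, GSK690 stood at 49.8% and 33.9% of its inactive isomer GSK690* for MT2A in Kasumi-1 (24 h, then 72 h) and at 62.3% and 59.9% in SKNO-1. RN-1 stood at 41.5% and 48.2% of DMSO in Kasumi-1 and at 61.2% and 74.1% in SKNO-1. MT2A was on average lower with GSK690 than with its isomer in all 4 sets, both at 1 µM.

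No difference of metallothionein RNA between GSK690* and DMSO passed. This asks whether the isomer alone moves metallothionein RNA, and it was not used to choose the genes. None of the 5 members passed in any of the 4 sets by limma with Benjamini-Hochberg adjustment (adjusted p = 1 throughout), and 0 had an unadjusted p under 0.05. Among all genes 0% passed in each set, and 2.57%, 0.934%, 1.83% and 2.25% had an unadjusted p under 0.05. For MT2A the log2 differences of GSK690* from DMSO were -0.28 (95% interval -0.89 to 0.34), -0.13 (-0.74 to 0.49), -0.17 (-0.78 to 0.45) and 0.04 (-0.58 to 0.65) for the 2 Kasumi-1 sets, 24 h first, and then those of SKNO-1. The intervals leave room for shifts of about the size of those described for SKNO-1, so equality of the 2 controls was not shown.

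The irreversible and the reversible inhibitor, both at 1 µM, did not differ detectably either. For MT2A, RN-1 minus GSK690 was 0.05 (95% interval -0.56 to 0.67), 0.55 (-0.06 to 1.16), 0.09 (-0.53 to 0.70) and 0.18 (-0.43 to 0.79) on the log2 scale in the same order of sets. The widest gap, in Kasumi-1 at 72 h, set 29.1 and 16.4 FPKM with RN-1 against 15.6 and 13.7 FPKM with GSK690, without overlap, and limma gave an adjusted p = 0.676. Without RN-1 library 1 the difference was 0.16, and over the 4 fits without 1 library it ran to 0.95. In SKNO-1 at 72 h RN-1 library 1 had another name prefix (CM) than the other inhibitor libraries (CP), and a term for the prefix moved the value to -0.02. Over the 5 members in the 4 sets, 0 passed and 0 had an unadjusted p under 0.05. Of all genes 0%, 0.00841%, 0% and 0% passed, and 0.723%, 7.06%, 5.16% and 1.01% had an unadjusted p under 0.05.

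Without inhibitor, Kasumi-1 held more MT2A, MT1X and MT1E than SKNO-1. The same control libraries enter the inhibitor contrast that chose the members. Choosing genes on a fall in Kasumi-1 can favour high control values there, so the tests between lines are not independent of that choice. At 24 h the controls of Kasumi-1 lay between 56.6 and 85.0 FPKM for MT2A and those of SKNO-1 between 19.8 and 34.3 FPKM, a log2 difference of 1.19 ± 0.21 (SE, n = 4 per line, limma adjusted p = 3.02e-05). MT1X differed by 1.42 ± 0.30 (adjusted p = 0.000262, limma) and MT1E by 2.09 ± 0.30 (adjusted p = 1.90e-06, limma), both without overlap of the lines. MT1F passed the filter through SKNO-1 alone, so a difference was built into its being tested, and its levels are only described: 0 to 0.107 FPKM in Kasumi-1 controls and 0.818 to 2.74 FPKM in those of SKNO-1. MT1G, at 4.20 to 10.6 FPKM in Kasumi-1 and 2.09 to 8.16 FPKM in SKNO-1, overlapped and did not pass (0.64 ± 0.37, adjusted p = 0.133, limma). Without SKNO-1 GSK690* library 1 its difference was 1.029. With a term for library number, which is not said to pair the cultures, MT1G passed (limma adjusted p = 0.00272).

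At 72 h the same 3 genes were higher in Kasumi-1. MT1X differed by 1.20 ± 0.30 (limma adjusted p = 0.00131) and MT1E by 1.52 ± 0.30 (adjusted p = 9.43e-05), and these calls held in each fit without 1 library. MT2A differed by 0.51 ± 0.21 (adjusted p = 0.0353, limma), with controls of 41.2 to 50.1 FPKM in Kasumi-1 and 23.3 to 43.6 FPKM in SKNO-1, which overlapped. That call was lost without Kasumi-1 DMSO library 1, either Kasumi-1 GSK690* library, SKNO-1 DMSO library 2 or SKNO-1 GSK690* library 2 (adjusted p = 0.0524 to 0.235), and with no filter on low values (adjusted p = 0.0685). MT1G again did not pass (0.70 ± 0.37, adjusted p = 0.0988, limma), except without SKNO-1 GSK690* library 1 (adjusted p = 0.0261). Differences between the lines were common: 30.9% of genes were higher and 38.2% lower in Kasumi-1 at 24 h, and 32.6% and 38.2% at 72 h. Line cannot be told apart from medium, serum and GM-CSF here. At 72 h the Kasumi-1 controls all carried the name prefix CM, and the SKNO-1 controls CP except for DMSO library 1. Line at 72 h can therefore hardly be told apart from the prefix, or from the 4 days that the protocol gives for SKNO-1.

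Between 24 and 72 h the controls of Kasumi-1 lost MT1E. The tests between times use these same controls and are likewise not independent of the choice of members. MT1E was 6.87 to 13.7 FPKM at 24 h and 3.05 to 5.23 FPKM at 72 h, a log2 difference of -1.10 ± 0.30 (limma adjusted p = 0.00437), which kept its call in each fit without 1 library. MT2A differed by -0.50 ± 0.21 (adjusted p = 0.0475, limma), also without overlap. Its call was lost in the fits without any 1 of 7 of the 8 libraries, all but DMSO library 2 at 24 h (adjusted p = 0.0711 to 0.186), with a pseudocount of 0.1 (adjusted p = 0.0519) and with no filter (adjusted p = 0.0968). The log2 values of MT1G, MT1X and MT1F were -0.41, 0.06 and -0.02 and did not pass (adjusted p = 0.367 to 0.962, limma).

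In SKNO-1 0 of 5 members passed between the times by limma (adjusted p = 0.143 to 0.939), 0 had an unadjusted p under 0.05, and the log2 values ran from -0.54 for MT1E to 0.29 for MT1X. MT1E passed without GSK690* library 2 at 24 h (-0.82, adjusted p = 0.0466). The median of all genes was higher at 72 h by 0.22 in Kasumi-1 and 0.20 in SKNO-1, and 47.8% and 43.3% of genes passed as higher against 4.22% and 1.93% as lower. These splits belong to the FPKM as deposited: under the median of ratios 1027 genes passed as higher and 1133 as lower in Kasumi-1, and 757 and 685 in SKNO-1. After scaling by the median of ratios, which brought those medians to 0.01, MT2A in Kasumi-1 was at -0.75 (adjusted p = 0.0113) and MT1E at -1.31 (adjusted p = 0.00278), while MT1X in Kasumi-1 turned to -0.17 and MT2A and MT1F in SKNO-1 to -0.04 and -0.10. Time cannot be told apart from the prefix of the library names, which is SL at 24 h and CM or CP at 72 h.

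**Figure D3:**
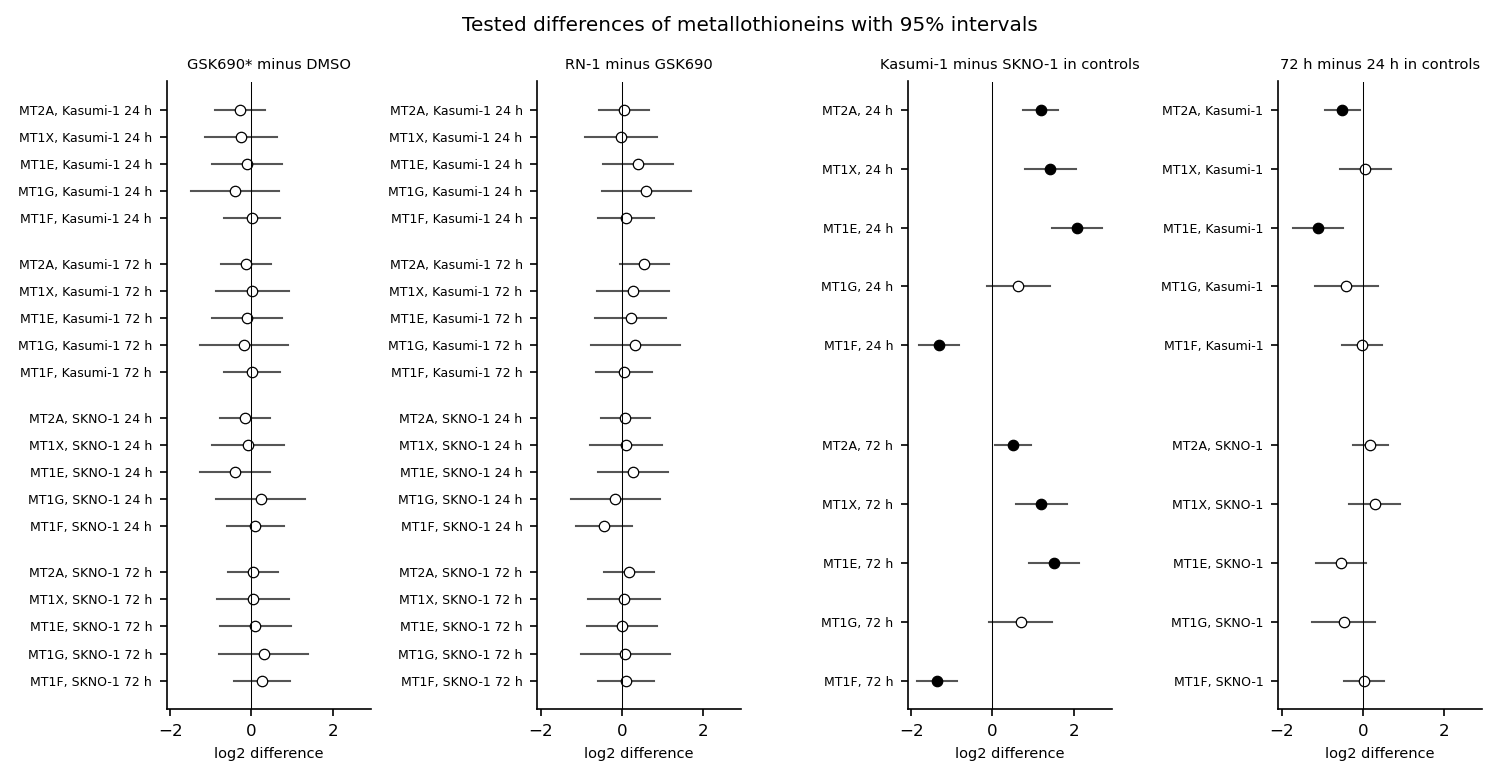
log2 differences of 5 metallothioneins with 95% intervals from limma in the 4 kinds of comparison that were tested; filled points passed an adjusted p of 0.05. The panels of agents hold no filled point, and the panel of cell lines shows MT2A, MT1X and MT1E on the Kasumi-1 side at both times. MT1F lies on the SKNO-1 side, through which alone it passed the filter, so its filled points there are not read as a test.

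The members varied together from library to library. After the mean of each set was subtracted, log2(FPKM + 1) of MT2A, MT1X, MT1E and MT1G correlated pairwise at r of 0.82 to 0.89 over the 32 libraries, and MT1F with those 4 at 0.31 to 0.59. These libraries share the inhibitor contrast and the library numbers, and close copies may share reads, so the values are descriptive. Among 8659 other genes of at least 5 FPKM on average, the pattern of MT2A was most like that of CLN6, a membrane protein of the endoplasmic reticulum (r = 0.958), MCM2, a subunit of the replicative helicase (0.948), CENPV (0.943), WDR5, a shared subunit of histone H3 lysine 4 methyltransferases (0.942), and SLC29A1, a nucleoside transporter (0.941). It was most opposite to that of SAMD8 (-0.936), KIAA1147 (-0.923) and TFEC, a myeloid transcription factor of the MiT family (-0.922).

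The remaining metallothionein genes were silent or nearly so. MT1A, MT1B and MT4 were listed at 0 in all 32 libraries. MT3 was listed at 0 in the 16 Kasumi-1 libraries and lay between 0.079 and 0.564 FPKM in the 16 of SKNO-1. The retrogene MT1HL1 was above 0 in 1 library, at 0.114 FPKM. None of these passed the filter.

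The genes that sense, carry or respond to metal showed scattered changes with the inhibitors. Of 68 tested genes in lists for zinc, copper, oxidative and glucocorticoid responses, 5 rose and 5 fell in Kasumi-1 at 24 h, 6 rose and 9 fell at 72 h, and in SKNO-1 6 rose and 4 fell at 24 h and 6 rose and 3 fell at 72 h (limma, adjusted p under 0.05). Of all genes 9.69%, 13%, 5.64% and 6.91% rose and 11.2%, 12.7%, 3.44% and 4.16% fell in the 4 sets. The median log2 difference of the lists together was -0.03, -0.02, -0.06 and -0.08, beside -0.01, -0.02, -0.02 and -0.02 for all genes. With the 8 libraries of a SKNO-1 set fitted alone 0 rose at 24 h, 2 rose at 72 h and 0 fell at either time, so the SKNO-1 calls that follow rest on the spread taken over all 32 libraries.

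MTF1, the zinc sensor that drives metallothionein transcription, was lower in Kasumi-1 at 72 h, at 4.88 ± 0.532 FPKM in controls and 3.63 ± 0.490 FPKM with inhibitors (SD, n = 4 each, log2 difference -0.35, limma adjusted p = 0.0321). The call was lost without library 1 of any of the 4 agents or GSK690 library 2 (adjusted p = 0.0525 to 0.158). In the other sets its values were -0.25 (adjusted p = 0.132), -0.24 (0.208) and -0.12 (0.554), the first of which passed without GSK690* library 2 (adjusted p = 0.0314). SLC30A1, the zinc exporter of the plasma membrane that is the other classical MTF1 target, did not pass in any set, with log2 differences of 0.03, 0.00, -0.15 and -0.11 (limma adjusted p = 0.308 to 0.985). In Kasumi-1 at 24 h it stood at 8.26 ± 0.538 FPKM in controls and 8.46 ± 0.179 FPKM with inhibitors (SD, n = 4 each). No other gene of the 6 tested in the list of MTF1 and the zinc exporters passed in any set.

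Among the 11 tested zinc importers, 0 rose in any set, and 1, 3, 3 and 2 fell. SLC39A1, which brings zinc in at the plasma membrane, fell from 28.4 ± 1.85 to 23.001 ± 1.62 FPKM in Kasumi-1 at 72 h (SD, n = 4 each, adjusted p = 0.00932, limma). SLC39A9 fell there from 33.3 ± 1.14 to 28.1 ± 2.002 FPKM (adjusted p = 0.00671, limma), and SLC39A8 was the third, named after its value was seen. SLC39A6 fell in SKNO-1 at 72 h from 13.8 ± 0.880 to 10.4 ± 0.574 FPKM (adjusted p = 0.00919, limma). The call in Kasumi-1 at 24 h was SLC39A7, and those in SKNO-1 at 24 h were SLC39A6, SLC39A8 and SLC39A9. SLC39A7 was lost in 6 of 8 fits without 1 library, all but those without DMSO library 2 or GSK690* library 1 (adjusted p = 0.0576 to 0.134). At 24 h in SKNO-1 SLC39A6 was lost without library 1 of RN-1 or GSK690 or GSK690* library 2 (0.0520 to 0.0811). SLC39A8 and SLC39A9 were each lost there in 6 of 8 such fits (0.0526 to 0.274). Both kept the call without GSK690 library 2, SLC39A8 also without DMSO library 2 and SLC39A9 also without RN-1 library 2, and both lost it under quantile normalization and the median of ratios. The remaining call, SLC39A9 in SKNO-1 at 72 h, held in 1 of 8 such fits, that without GSK690* library 1 (0.0534 to 0.117 in the others), and was lost under both scalings, and SLC39A8 in Kasumi-1 at 72 h was lost without library 1 of DMSO, RN-1 or GSK690 or GSK690* library 2 (0.0517 to 0.0813). The list's median log2 difference was -0.20, -0.22, -0.16 and -0.16.

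SLC31A1, the high-affinity copper importer, rose in all 4 sets, by 0.32, 0.38, 0.23 and 0.28 on the log2 scale (limma adjusted p = 0.00260, 0.000388, 0.0466 and 0.0118). In Kasumi-1 at 72 h that was 5.51 ± 0.362 FPKM in controls and 7.48 ± 0.401 FPKM with inhibitors (SD, n = 4 each). Both Kasumi-1 calls held in each fit without 1 library, and the SKNO-1 calls were lost in 7 of 8 such fits at 24 h, all but that without GSK690* library 1 (adjusted p = 0.0517 to 0.201), and at 72 h without DMSO library 1, GSK690* library 1 or GSK690 library 2 (0.0507 to 0.0765). SLC31A1 was the single gene of 15 in the copper list to rise in each set, and SOD1 fell at 24 h and SCO1 and COX11 at 72 h in Kasumi-1. SOD1 was lost without library 1 of DMSO or GSK690* or library 2 of RN-1 or GSK690 (adjusted p = 0.0781 to 0.105) and under quantile normalization (0.102). SCO1 was lost without library 1 of DMSO, GSK690* or GSK690 or library 2 of RN-1 or GSK690 (0.0786 to 0.197).

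Of 21 tested genes in the oxidant response list, NFE2L2 targets together with regulators such as KEAP1, 1 rose in each set. It was PRDX1, a peroxiredoxin that reduces hydrogen peroxide. PRDX1 went from 280 ± 23.1 to 437 ± 18.1 FPKM in Kasumi-1 at 72 h (SD, n = 4 each, log2 0.64, adjusted p = 6.49e-05, limma). It differed by 0.53 (adjusted p = 0.00157) and 0.48 (0.00271) in SKNO-1, and by 0.28 (0.0484) in Kasumi-1 at 24 h. The last held only without DMSO library 1 or GSK690* library 1 and was lost in the other 6 fits without 1 library (0.0561 to 0.194). HMOX1, NQO1, GCLC and GCLM, textbook targets named after their values were seen, are in this list and did not pass in any set. HMOX1 was low, at 0.424 FPKM on average. NQO1 differed by 0.02, 0.28, 0.20 and 0.25 in the 4 sets (limma adjusted p = 0.583 to 0.985), so absence of a rise was not shown. TXN fell in Kasumi-1 at 24 h, a call lost without library 1 of DMSO or GSK690* or library 2 of RN-1 or GSK690 (adjusted p = 0.0803 to 0.105). SRXN1 fell in Kasumi-1 at 72 h, lost without DMSO library 1 or GSK690 library 2 (0.0538 and 0.0560), and SLC7A11 in SKNO-1 at 72 h, lost without library 2 of RN-1 or GSK690 (0.106 and 0.110).

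Of 15 glucocorticoid receptor genes and targets, 3, 4, 4 and 4 rose and 2, 2, 1 and 0 fell. TSC22D3, PER1, KLF9 and ZBTB16, named after their values were seen, are in this list and did not pass in any set. DUSP1 and SGK1, named likewise, are also in it and rose in some sets. DUSP1 rose in SKNO-1 at 24 and 72 h (log2 0.55 and 0.68, limma adjusted p = 0.0208 and 0.00339). SGK1 rose in Kasumi-1 at 72 h (log2 0.36, limma adjusted p = 0.0371). DDIT4, an inhibitor of mTORC1, was the most raised, by 1.07, 0.78, 1.15 and 0.98 on the log2 scale (limma adjusted p = 0.00205, 0.0142, 0.00226 and 0.00618). At 72 h its call was lost without GSK690* library 1 in Kasumi-1 (adjusted p = 0.0808) and without DMSO library 1 in SKNO-1 (0.0544). NFKBIA, which holds NF-kB in the cytoplasm, rose by 0.60, 0.55, 0.80 and 0.74 (adjusted p = 0.00522, 0.00737, 0.00105 and 0.00153, limma) and held without any 1 library. TXNIP, which binds and inhibits thioredoxin, rose in Kasumi-1 at 72 h from 81.6 ± 1.18 to 129 ± 21.2 FPKM (log2 0.64, adjusted p = 0.0110, limma), a call lost without GSK690 library 1 (0.0656). At 24 h it rose by 0.55 (adjusted p = 0.0321), lost without library 1 of RN-1 or GSK690 or library 2 of DMSO or GSK690* (0.106 to 0.132). NR3C1, the glucocorticoid receptor, rose in SKNO-1 from 16.5 ± 1.22 to 21.6 ± 2.46 FPKM at 24 h and from 18.3 ± 3.07 to 27.5 ± 1.76 FPKM at 72 h (SD, n = 4 each, limma adjusted p = 0.0296 and 0.000684). The first of these was lost in 6 of 8 fits without 1 library, all but those without GSK690* library 1 or GSK690 library 2 (adjusted p = 0.0633 to 0.202). In Kasumi-1 NR3C1 differed by 0.09 and -0.16 (adjusted p = 0.619 and 0.266), and at 72 h passed without RN-1 library 2 (-0.28, adjusted p = 0.0486). FKBP5, a co-chaperone induced by glucocorticoids, fell in Kasumi-1 at both times and in SKNO-1 at 24 h, and was named after its values were seen, as was COX11. The calls of DUSP1, SGK1, FKBP5 and COX11 were not examined without single libraries.

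**Figure D4:**
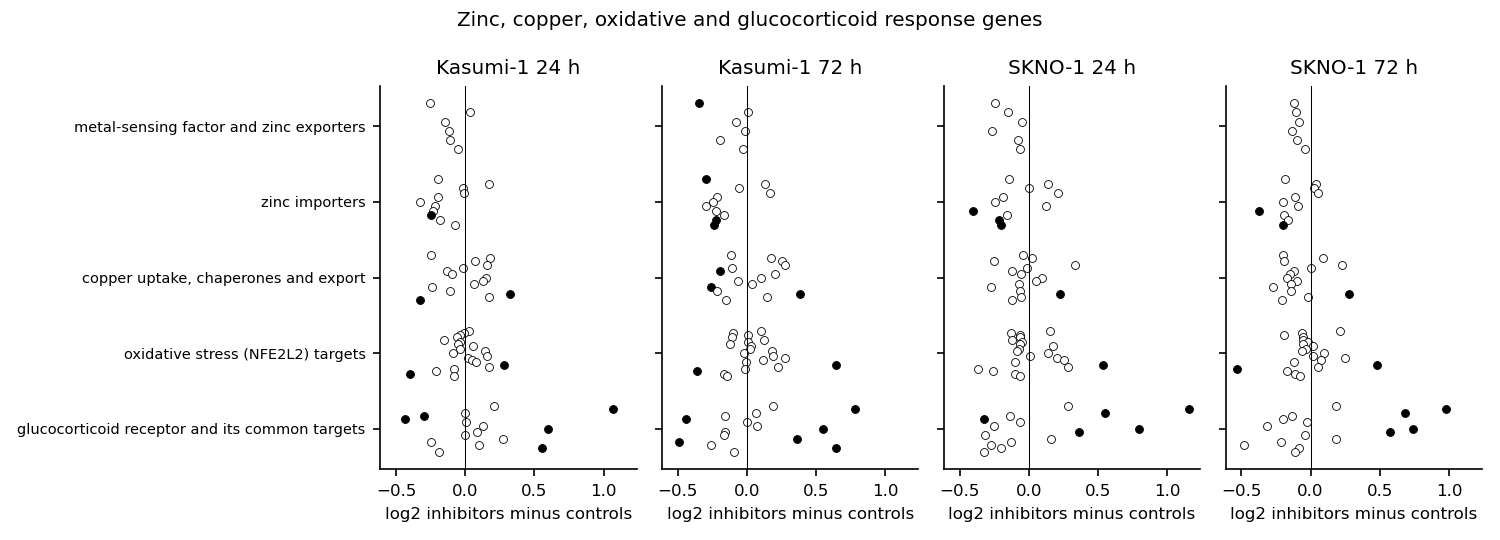
log2 differences of inhibitors minus controls for 68 tested genes of 5 lists, one point per gene, in the 4 sets; filled points passed limma's adjusted p of 0.05. Filled points are few, and among the zinc importers 1, 3, 3 and 2 lie below 0 and 0 above.

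Genes next to the cluster did not follow one direction. Of 30 genes with a locus within 1 Mb of the cluster, 18 were tested. In Kasumi-1 1 rose and 4 fell at 24 h, and 3 rose and 5 fell at 72 h. In SKNO-1 0 rose and 1 fell at 24 h, and 1 rose and 1 fell at 72 h (limma). The share of all genes that rose and fell is given above for the same comparison. OGFOD1, a prolyl hydroxylase of a ribosomal protein at -156.7 kb from the start of MT2A, fell in all 4 sets, by -0.40, -0.52, -0.34 and -0.36 on the log2 scale (adjusted p = 0.00170, 8.24e-05, 0.0118 and 0.00592, limma). In Kasumi-1 at 24 h it was 28.998 ± 1.51 FPKM in controls and 21.7 ± 1.15 FPKM with inhibitors (SD, n = 4 each). The SKNO-1 call at 24 h was lost without library 1 of DMSO, RN-1 or GSK690 or GSK690* library 2 (adjusted p = 0.0575 to 0.0880), and both SKNO-1 calls were lost when a set was fitted alone (0.0663 and 0.106).

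NLRC5, the transactivator of class I antigen presentation genes, 381.3 kb after the start of MT2A, rose by 0.48 and 0.55 in Kasumi-1, 24 h first, and by 0.49 in SKNO-1 at 72 h (limma adjusted p = 0.0205, 0.00717 and 0.0270). The calls were lost without DMSO library 1 (24 h in Kasumi-1, 72 h in SKNO-1), GSK690* library 1 (each of the 3 sets), or library 2 of RN-1 or GSK690 (the same sets as DMSO library 1), with adjusted p = 0.0618 to 0.142. NUDT21, NUP93 and COQ9 fell in Kasumi-1 at both times, CIAPIN1 fell there at 72 h, and HERPUD1 rose there at 72 h with CCDC102A, a gene of low level (0.273 ± 0.104 FPKM in controls, 0.881 ± 0.269 FPKM with inhibitors, SD, n = 4 each). Apart from OGFOD1, NLRC5 and CCDC102A, these neighbours were named after their values were seen, and their calls were not examined without single libraries. The median log2 difference of the 18 neighbours was -0.07, 0.00, -0.05 and -0.06.

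**Figure D5:**
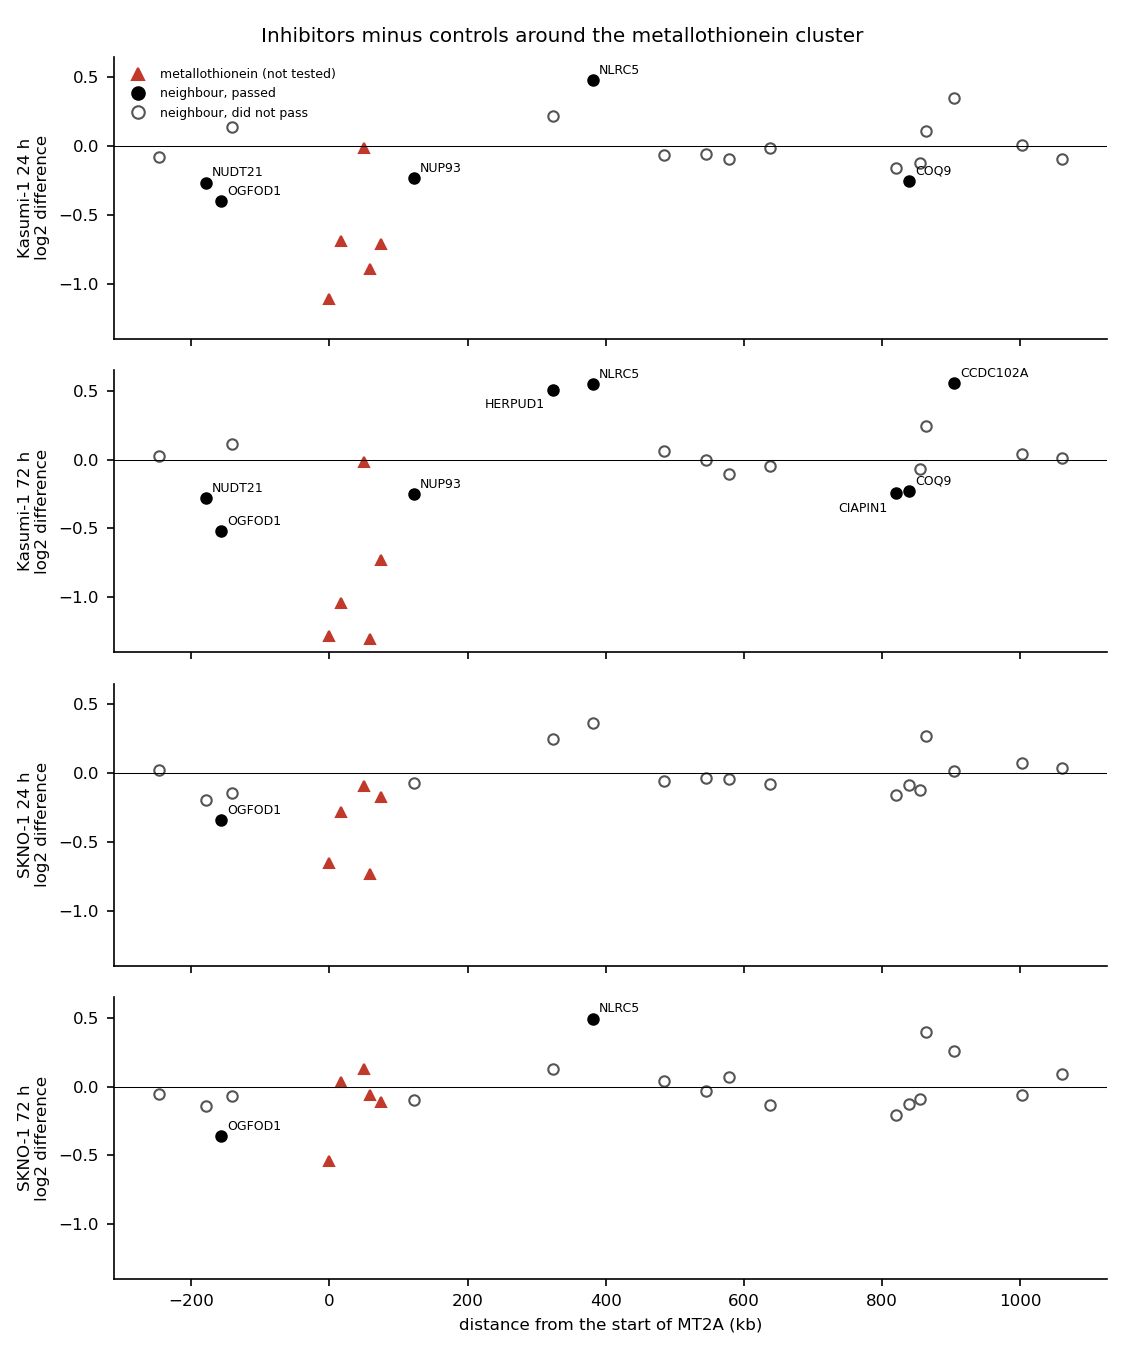
log2 differences of inhibitors minus controls against the distance of each gene's start from the start of MT2A in kb, one panel per set of cell line and time; triangles are metallothioneins, which were not tested, filled circles are neighbours that passed limma's adjusted p of 0.05 and open circles those that did not. OGFOD1, at -156.7 kb, is the filled circle below 0 in all 4 panels.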

How the data were processed

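RNA from 32 cultures, isolated per the labels by Trizol lysis or RNeasy Plus kits, was sequenced. The authors deposited 1 table of FPKM per gene and library with a table of symbols and loci, and the submitters' processing notes name TopHat 1.4.1, Cufflinks and hg19 with no role or order. The annotation, the library type and any further scaling are not given in the sources used here. Columns were tied to samples by the library names in the labels, with 0 columns left over, and groups were read from the titles. Depth is unknown: relative depth read from low values of 1213 genes ran from 0.573 to 1.65, as a rough guide.

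The 11890 genes that reached 1 FPKM in 2 or more libraries were taken as log2(FPKM + 1), a scale that understates changes of low genes. The model (limma 3.58.1, R 4.3.3) had 16 group means and a variance trend, with 16 residual and 5.23 prior degrees of freedom. Tests were 2-sided, with Benjamini-Hochberg adjustment over all genes of a comparison and a threshold of 0.05. The fit was tested on simulated data. Tables came from pandas 2.3.3 and numpy 2.4.6 and figures from matplotlib 3.10.9, under Python 3.11.15. The design text calls the libraries biological replicates and says no more, so p-values measure the spread between these libraries.

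The members and lists were chosen with earlier results of these data known. The inhibitor contrast chose the members, so for them it has no test. Its control libraries also enter the tests between lines and between times, which are thus not independent of that choice. The text names all 7 members, MTF1, SLC30A1 and NR3C1 whatever their values, up to 2 genes per list and set with the largest difference among those that passed, and the 5 most and 3 least like MT2A. Of the 43 calls of named list genes and neighbours, 19 held in every fit without 1 library, and values are given mainly for those, a choice made after the values were seen. Alternatives were a pseudocount of 0.1, no filter, quantile normalization, the median of ratios, a term for library number, each set fitted alone, a term for the name prefix, DMSO as the only control, and each library left out.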

Additional observations from a re-analysis of the deposited data

Results flagged for a closer look

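In 40 groups of 4 libraries (5 members, controls and inhibitors in each set), a library stood apart by Dixon's test in 4. Chance gives about 1 in 20, a rate that does not apply to the 2 MT1F groups, where 3 libraries are at 0 and any value above 0 stands apart. MT2A among the Kasumi-1 controls at 24 h was highest in DMSO library 1, at 85.0 FPKM. MT1E among the Kasumi-1 inhibitor libraries at 24 h was highest in RN-1 library 1, at 9.03 FPKM. MT1F among the Kasumi-1 inhibitor libraries was highest at 0.1501 FPKM at 24 h and at 0.0717 FPKM at 72 h, beside 3 libraries listed at 0 each time.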

How the results depend on the processing

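FPKM without read counts leaves depth, and so the precision of low members such as MT1F and MT1E in SKNO-1, unknown. With 2 libraries a group, single libraries weigh heavily. In every alternative run, MT2A, MT1X and MT1E kept their calls between the lines at 24 h and 0 members passed between GSK690* and DMSO or between RN-1 and GSK690. MT1E kept its fall with time in Kasumi-1. The cause of the changes below was not tested.

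The 2 library numbers of a group are not said to pair cultures. Deviations of same-numbered libraries from their group means correlated at 0.133 to 0.45 (Kasumi-1 24 h), 0.043 to 0.481 (Kasumi-1 72 h), 0.294 to 0.525 (SKNO-1 24 h) and 0.144 to 0.697 (SKNO-1 72 h) over 6 pairs of agents each. With a replicate block, MT1G also passed between the lines (limma adjusted p = 0.00272 at 24 h, 0.00126 at 72 h) and with time in Kasumi-1 (0.0465), and in SKNO-1 2 members fell with time, MT1E (0.0144) and MT1G (0.0267), where 0 did without it. Over all genes 379 of 11889 were lower with time in SKNO-1 with the block and 230 without. With the replicate block 14 (Kasumi-1 24 h), 16 (Kasumi-1 72 h), 12 (SKNO-1 24 h) and 12 (SKNO-1 72 h) pathway genes fell, and 11 rose in Kasumi-1 at 72 h. Falls over all genes also grew with the block, from 1327 to 2041, 1505 to 2197, 409 to 1108 and 495 to 1333 in the 4 sets, and rises in Kasumi-1 at 72 h from 1547 to 2104. Of the neighbours, 3 rose in Kasumi-1 at 24 h, 2 in SKNO-1 at 24 h and 2 in SKNO-1 at 72 h, and 2 fell in SKNO-1 at 72 h.

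With each set fitted alone, 11 pathway genes fell in Kasumi-1 at 24 h. In SKNO-1 0 rose and 0 fell at 24 h, and 2 rose and 0 fell at 72 h. Of the neighbours, 3 fell in Kasumi-1 at 72 h, 0 fell in SKNO-1 at 24 h, and 0 rose and 0 fell in SKNO-1 at 72 h. Quantile normalization and the median of ratios each gave 2 neighbours that rose in Kasumi-1 at 24 h and 1 in SKNO-1 at 24 h, and under the median of ratios 2 pathway genes fell in SKNO-1 at 24 h. With no filter 0 neighbours rose in SKNO-1 at 72 h. Both a pseudocount of 0.1 and no filter left 1 member lower with time in Kasumi-1 in place of 2.

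Signs of small time differences turned with scaling. Under quantile normalization and the median of ratios in turn, MT1X in Kasumi-1 was at -0.21 and -0.17, MT2A in SKNO-1 at -0.095 and -0.038 and MT1F in SKNO-1 at -0.092 and -0.10. SLC30A1 in Kasumi-1 at 72 h was at -0.012 under quantile normalization. With a term for the name prefix MT2A differed by -0.020 between RN-1 and GSK690 in SKNO-1 at 72 h. With DMSO as the only control, 1 member had every inhibitor library below every control in SKNO-1 at 24 h and 1 at 72 h, and with CP libraries alone 1 at 72 h.

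Leaving out each library in turn, MT2A ranged from -0.55 to 0.22 (SKNO-1 24 h) and -0.40 to 0.47 (SKNO-1 72 h) for GSK690* minus DMSO, and from -0.17 to 0.27 (Kasumi-1 24 h), -0.20 to 0.37 (SKNO-1 24 h) and -0.089 to 0.45 (SKNO-1 72 h) for RN-1 minus GSK690. With time, MT1X in Kasumi-1 ranged from -0.13 to 0.26, MT1F from -0.055 to 0.019 in Kasumi-1 and -0.21 to 0.27 in SKNO-1, and MT2A in SKNO-1 from -0.039 to 0.40. SLC30A1 in Kasumi-1 at 72 h ranged from -0.054 to 0.062. Members lower with time numbered 1 to 2 in Kasumi-1 and 0 to 1 in SKNO-1. Members with every inhibitor library below every control numbered 2 to 4 in Kasumi-1 at 24 h and 0 to 1 in SKNO-1 at each time. Pathway genes that rose numbered 3 to 5 (Kasumi-1 24 h) and 3 to 6 (SKNO-1 24 h), and those that fell 2 to 6, 4 to 12, 1 to 8 and 1 to 4 in the order of the sets. Neighbours that rose numbered 0 to 1 (Kasumi-1 24 h), 0 to 1 (SKNO-1 24 h) and 0 to 2 (SKNO-1 72 h), and those that fell 2 to 4, 3 to 5, 0 to 1 and 1 to 2.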
